A study of Mus musculus with 10 samples.

Results

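Sterols and fatty acids are made by enzymes whose genes are switched on by the sterol regulatory element-binding proteins, or SREBPs. These data describe 31 genes of that system in Hepa1-6 cells, a mouse hepatoma line, after contact with killer T cells. The genes were taken by name from the 34745 genes of the deposited expression table: 22 of the sterol arm, from the regulators to the last steps of cholesterol synthesis, and 9 of the fatty acid arm. The co-culture group consisted of 5 libraries from wild-type Hepa1-6 cells grown for 48 h with CD8+ T cells, which were isolated from the spleens of male C57/BL6 mice aged 6 to 8 weeks and activated for 5 days with antibodies to CD3 and CD28. The untreated group consisted of 5 libraries from wild-type Hepa1-6 cells without T cells. The hepatoma cells grew in DMEM with 10% fetal bovine serum, also during co-culture, and PBS washes were used to take away floating cells before RNA was taken. Whether the libraries of a group came from separate cultures is not given in the labels, so p-values measure the spread between these libraries, which may be technical.

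SREBP precursors sit in the membrane of the endoplasmic reticulum bound to the escort protein Scap. When membrane sterol is high, Insig proteins hold Scap in place. When it is low, Scap carries the precursor to the Golgi, where the proteases encoded by Mbtps1 and Mbtps2 release the active factor. SREBP-2, from Srebf2, mainly drives cholesterol synthesis, and SREBP-1c, from Srebf1, mainly drives fatty acid synthesis and is itself induced by the oxysterol receptors called LXR. Insig1 is a target of the factors that its product restrains.

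Totals ran from 12922263 to 16500234 counts in co-culture libraries and from 13525697 to 17100662 in untreated libraries. The 12 hepatocyte and hepatoma markers summed to 1347 to 1605 CPM in co-culture and 1478 to 1784 CPM in untreated libraries (CPM are counts divided by library size, scaled between libraries by the TMM method); 5 passed the low-count filter, of which Afp and Krt8 were called lower and Trf higher. Of all genes tested, 16.1% were called lower and 17.4% higher. The keratin genes Krt8 and Krt18 held most of the sum. Krt8 was at 881 to 1030 CPM in co-culture and 994 to 1216 CPM in untreated libraries. Krt18 averaged 482 CPM in co-culture and 497 CPM in untreated libraries and was not called. Trf averaged 3.69 CPM in co-culture and 0.0250 CPM in untreated libraries, and 7 of the 12 were under 1 CPM in every library. The fetal liver gene Afp was at 14.7 to 16.9 CPM in co-culture and 17.2 to 22.4 CPM in untreated libraries, while the defining hepatocyte gene Alb had 4 and 0 summed counts. All 10 T cell markers were under 1 CPM in every library, with sums of 0.230 to 1.30 CPM in co-culture and 0 to 0.561 CPM in untreated libraries, and Cd3e and Cd8a had 0 counts in all of them. The 10 macrophage markers, over 11 rows, summed to 93.9 to 112 CPM in co-culture libraries and 59.9 to 66.0 CPM in untreated libraries. Itgam, whose symbol stood in more than 1 row, was in the sum but was not read for a call. Of the 6 others that passed the low-count filter, 4 were called higher. Cd14 and Cd68 held most of the sum. Cd14 averaged 49.4 CPM in co-culture and 32.3 CPM in untreated libraries and was called higher. Cd68, at 25.1 CPM in both groups, was not called (edgeR adjusted p = 0.968). Neither was Mpeg1, at 3.77 CPM in co-culture and 3.89 CPM in untreated libraries (edgeR adjusted p = 0.870). Lyz2 was at 18.2 ± 2.15 CPM in co-culture and 0.931 ± 0.250 CPM in untreated libraries, and Adgre1 at 3.66 ± 0.482 CPM in co-culture and 0.162 ± 0.102 CPM in untreated libraries (SD, n = 5 each), while C1qa and C1qb had 0 counts in untreated libraries. Several of these markers differed between the groups, and their part in the results was not tested. In bulk RNA, fewer cells of a type and less RNA per cell cannot be told apart.

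Genes of both arms were lower after co-culture, by modest amounts. All 31 passed the low-count filter, and 18 fell, 1 rose and 12 did not pass the threshold (edgeR quasi-likelihood test, two-sided, Benjamini-Hochberg adjusted p under 0.05 over 12666 genes). Of all genes tested, 16.1% were called lower and 17.4% higher, 33.5% in all. The median log2 fold change of the 31 genes, co-culture over untreated, was -0.22, against 0.01 over all genes tested. For 12 of the 31, every co-culture library lay below every untreated library, for 1 every one lay above, and for 18 the groups overlapped. The same was seen below for 11.1% and above for 12.6% of all genes tested. Among the 18 falls, 3 were larger than 1.5-fold, those of Insig1, Tm7sf2 and Scd2.

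**Figure D1:**
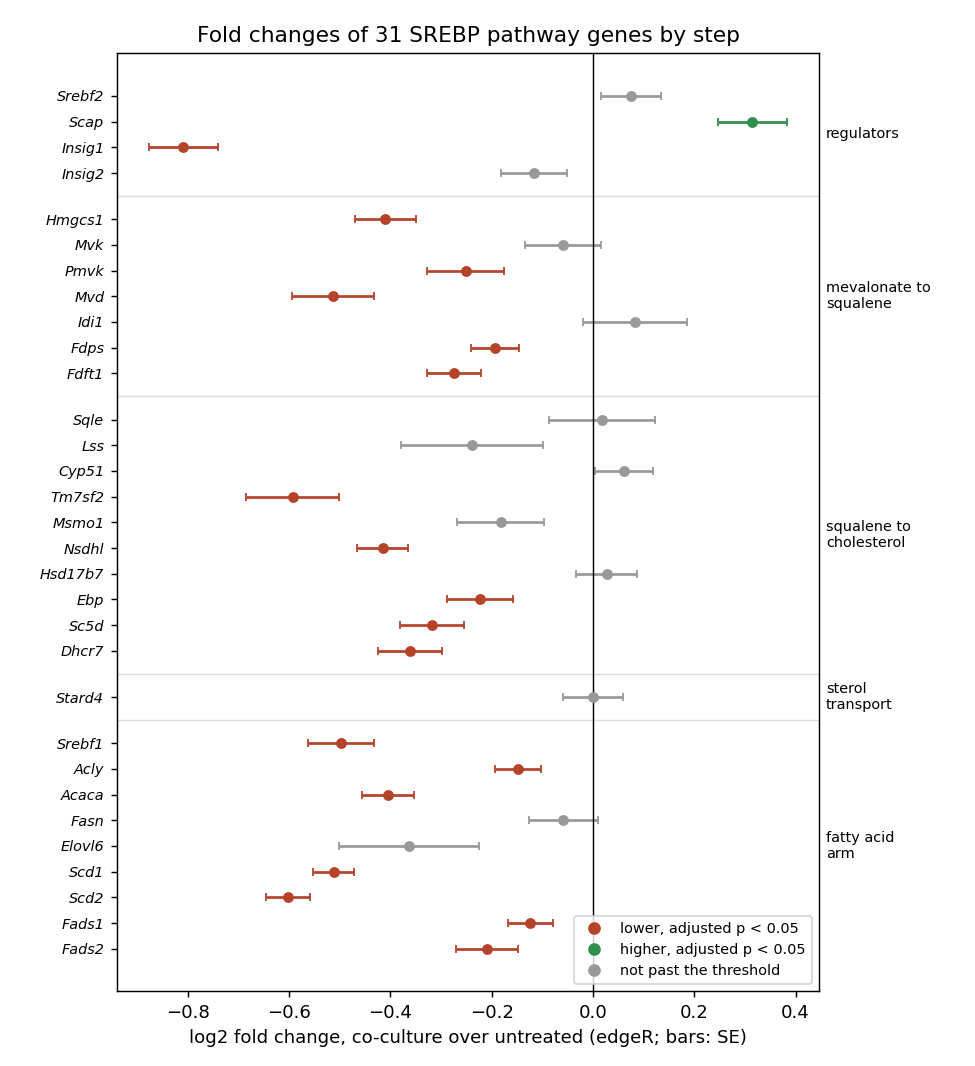
Log2 fold change, co-culture over untreated, of 31 SREBP pathway genes grouped by step, with standard errors as bars (edgeR, n = 5 libraries in each group). Red points passed the threshold as lower, the green point as higher, and grey points did not pass; Insig1 lies farthest left, at -0.81, and Scap is the gene called higher, at 0.31.

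Both arms held genes that fell beside genes that did not pass. In the sterol arm 11 of 22 fell and 1 rose, with a median of -0.21 and a range of -0.81 to 0.31. In the fatty acid arm 7 of 9 fell and none rose, with a median of -0.36 and a range of -0.60 to -0.06. Over all genes tested, 16.1% were lower and 17.4% higher. The ranges of the arms overlap, and the difference between the arms was not tested. It depends in part on the regulators and Stard4 counted in the arms. Of the sterol enzymes alone 10 of 17 fell, with a median of -0.24. Of the fatty acid enzymes without Srebf1 6 of 8 fell, with a median of -0.29. The sterol arm took 0.388% ± 0.00619 of all counts in co-culture libraries and 0.425% ± 0.0212 in untreated libraries (SD, n = 5 each), with overlapping groups. The fatty acid arm took 0.574% ± 0.0166 in co-culture and 0.715% ± 0.0330 in untreated libraries (SD, n = 5 each), and the groups did not overlap. Scd1 and Scd2 made up most of that gap, at 0.231% ± 0.00405 in co-culture and 0.338% ± 0.0145 in untreated libraries. The other 7 fatty acid genes together took 0.343% ± 0.0148 in co-culture and 0.377% ± 0.0211 in untreated libraries, and their ranges overlapped (0.328% to 0.365% and 0.345% to 0.401%).

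The start regions of most of these genes held a CCAAT box, whether or not the gene was called. RefSeq windows from 250 bases before to 50 bases after a start (GRCm38.p6) were found for 24 of the 31 genes. CCAAT, the box bound by NF-Y, a partner of SREBPs, was present on either strand (CCAAT or ATTGG) in 20 of the 24 genes, against 41.1% of all 27025 genes with windows. The members' windows were also richer in G and C, 61.5% against 53.6%. CCAAT stood in 11 of 14 members that were called and in 9 of 10 that were not. The sterol regulatory element was searched only as TCACNCCAC, on both strands. These letters were found in 1 of the 24, Hmgcs1, against 1.44% of all genes. Variant forms of the element were not searched, so its absence from the other windows is not shown. The E-box CACGTG, which SREBPs can also bind, was in 5 of the 24, against 8.09% of all genes. A gene with several windows counted when any held the letters. The window of Acaca lies inside the gene as the deposited table places it, at an internal start. A match is a description of letters, not a bound site. The following 4 windows have the letters searched in capitals. Insig1 (chr5:28071162-28071461, plus strand) is the gene that fell most. Hmgcs1 (chr13:119690101-119690400, plus strand) is the gene with TCACNCCAC. Cyp51 (chr5:4104648-4104947, minus strand) is a gene with CCAAT that was not called. Fads2 (chr19:10101454-10101753, minus strand) is a gene that fell with none of the letters searched.
Insig1: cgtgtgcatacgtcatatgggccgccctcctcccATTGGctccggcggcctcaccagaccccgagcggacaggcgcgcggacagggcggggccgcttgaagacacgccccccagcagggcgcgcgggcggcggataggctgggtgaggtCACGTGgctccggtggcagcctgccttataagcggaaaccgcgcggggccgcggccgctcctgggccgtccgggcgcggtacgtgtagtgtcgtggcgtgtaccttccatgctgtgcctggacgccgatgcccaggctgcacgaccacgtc
Hmgcs1: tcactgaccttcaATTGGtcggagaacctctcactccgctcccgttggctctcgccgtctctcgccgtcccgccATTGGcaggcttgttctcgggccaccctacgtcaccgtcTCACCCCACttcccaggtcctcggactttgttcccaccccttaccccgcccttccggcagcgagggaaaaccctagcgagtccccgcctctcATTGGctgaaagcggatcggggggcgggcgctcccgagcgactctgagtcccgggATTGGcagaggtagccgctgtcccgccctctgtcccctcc
Cyp51: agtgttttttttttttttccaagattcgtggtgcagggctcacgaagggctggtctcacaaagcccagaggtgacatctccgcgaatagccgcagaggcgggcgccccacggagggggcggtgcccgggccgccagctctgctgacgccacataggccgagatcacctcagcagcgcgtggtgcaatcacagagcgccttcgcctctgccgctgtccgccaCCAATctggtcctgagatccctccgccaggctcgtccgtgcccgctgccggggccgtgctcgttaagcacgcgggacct
Fads2: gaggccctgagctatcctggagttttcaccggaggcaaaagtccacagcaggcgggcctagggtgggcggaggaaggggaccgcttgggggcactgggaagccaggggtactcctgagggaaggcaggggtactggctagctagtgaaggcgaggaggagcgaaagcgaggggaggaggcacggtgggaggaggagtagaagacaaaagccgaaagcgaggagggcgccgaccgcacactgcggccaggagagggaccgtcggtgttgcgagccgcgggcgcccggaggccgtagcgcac
In Insig1 the capitals mark ATTGG followed by CACGTG. In Hmgcs1 they mark ATTGG in 4 places and TCACCCCAC once, and in Cyp51 a single CCAAT.

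Among the regulators, Insig1 fell, Srebf1 fell and Scap rose, while Srebf2 and Insig2 did not pass. Insig1 (ENSMUSG00000045294, chromosome 5, 28071363 to 28078662 in mm10), which retains Scap and thereby restrains SREBPs, had 86.2, 91.1, 90.6, 92.3 and 84.2 CPM in co-culture libraries, against 135, 180, 156, 160 and 148 CPM in untreated libraries. The co-culture libraries lay close together and far below all untreated libraries, of which replicate 1 was the lowest. The log2 fold change was -0.81 ± 0.068 (SE, edgeR adjusted p = 1.51e-06). Its relative Insig2 (chromosome 1, 121304353 to 121332589), which also retains Scap, had 39.7, 41.9, 39.9, 43.1 and 46.4 CPM in co-culture libraries, against 47.5, 49.1, 46.5, 43.5 and 42.1 CPM in untreated libraries. These groups overlapped, and the log2 fold change of -0.12 ± 0.065 did not pass (edgeR adjusted p = 0.192, 95% interval -0.26 to 0.02).

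Srebf1 (ENSMUSG00000020538, chromosome 11, 60199089 to 60222581), counted here with the fatty acid arm, encodes SREBP-1a and SREBP-1c, which gene counts cannot separate. It had 344, 365, 379, 378 and 345 CPM in co-culture libraries, against 436, 493, 520, 567 and 541 CPM in untreated libraries. All co-culture libraries were lower, and untreated replicate 1 was again the lowest of its group (log2 fold change -0.50 ± 0.065 SE, edgeR adjusted p = 7.40e-05). Srebf2 (chromosome 15, 82147266 to 82205376), which encodes SREBP-2, had 630, 647, 661, 644 and 603 CPM in co-culture libraries, against 542, 565, 590, 675 and 650 CPM in untreated libraries. The co-culture values fell inside the untreated range, and the log2 fold change of 0.07 ± 0.060 did not pass (edgeR adjusted p = 0.372, 95% interval -0.05 to 0.20). Scap (chromosome 9, 110333288 to 110384950) had 125, 138, 140, 132 and 126 CPM in co-culture libraries, against 94.8, 98.5, 103, 114 and 122 CPM in untreated libraries. Every co-culture library was higher, though the nearest libraries of both groups were close (log2 fold change 0.31 ± 0.068 SE, edgeR adjusted p = 0.00322).

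**Figure D2:**
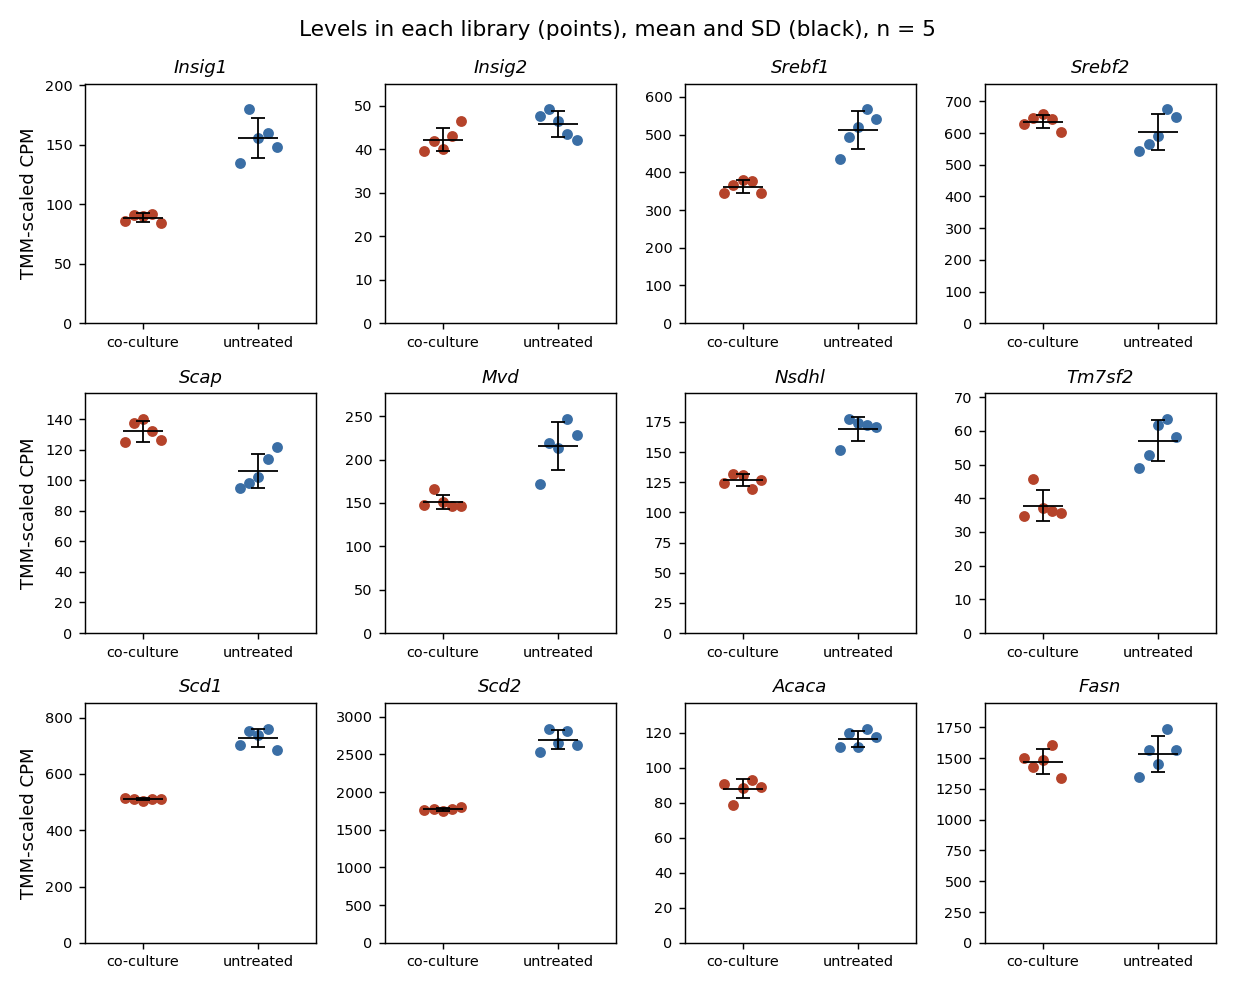
TMM-scaled CPM of 12 genes in each library, with co-culture in red on the left and untreated in blue on the right of each panel; black bars give the mean and SD (n = 5). Insig1, Srebf1, Mvd, Nsdhl, Tm7sf2, Scd1, Scd2 and Acaca have no overlap between groups and are lower after co-culture, Scap has none and is higher, and Insig2, Srebf2 and Fasn overlap.

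From the start of the mevalonate pathway to squalene, 5 of 7 genes fell and none rose, with a median of -0.25. Over all genes tested, 16.1% were lower and 17.4% higher. Hmgcs1, the synthase that makes HMG-CoA, averaged 141 ± 6.10 CPM in co-culture and 187 ± 16.6 CPM in untreated cells (SD, n = 5 each, log2 fold change -0.41, edgeR adjusted p = 0.000185). Mvd (chromosome 8, 122433596 to 122443422), the decarboxylase that makes isopentenyl diphosphate, had 147, 166, 151, 146 and 147 CPM in co-culture libraries, against 172, 220, 214, 247 and 228 CPM in untreated libraries. Co-culture replicate 2 was high and untreated replicate 1 low, and even these did not cross (log2 fold change -0.51 ± 0.080 SE, edgeR adjusted p = 0.000294). The falls of Fdft1, the squalene synthase (-0.28), Pmvk, phosphomevalonate kinase (-0.25), and Fdps, farnesyl diphosphate synthase (-0.19), were smaller. Fdft1 shares its locus with Ctsb on the opposite strand, which held 251362 summed counts against 32850 and had a log2 fold change of -0.40. Whether counting used strand is not given in the sources used here, so the reads of this pair may not be separable. Mevalonate kinase, Mvk, at -0.06 ± 0.075, and the isomerase gene Idi1, at 0.08 ± 0.103, did not pass (edgeR adjusted p = 0.591 and 0.580).

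From squalene to cholesterol, 5 of 10 genes fell and none rose, with a median of -0.23. The shares over all genes tested were 16.1% lower and 17.4% higher. Tm7sf2 (chromosome 19, 6062821 to 6068373), a sterol C14 reductase, had 34.6, 45.7, 37.0, 36.3 and 35.6 CPM in co-culture libraries, against 49.1, 52.7, 61.8, 63.5 and 58.3 CPM in untreated libraries. Only co-culture replicate 2 came near the untreated range (log2 fold change -0.59 ± 0.092 SE, edgeR adjusted p = 0.000276). Its same-strand neighbour Vps51, whose annotated span overlaps, was at 0.02 and not called. Nsdhl (chromosome X, 72918557 to 72958514), a dehydrogenase that acts in C4 demethylation, had 125, 132, 131, 120 and 127 CPM in co-culture libraries, against 152, 177, 174, 172 and 171 CPM in untreated libraries. Untreated replicate 1 stood below its group and still above all co-culture libraries (log2 fold change -0.42 ± 0.050 SE, edgeR adjusted p = 3.84e-05). The other 3 that fell were the reductase gene Dhcr7 (-0.36), the desaturase gene Sc5d (-0.32) and the isomerase gene Ebp (-0.22).

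The other 5 genes of this segment did not pass. Sqle, squalene epoxidase, a rate-limiting enzyme, averaged 328 ± 38.8 CPM in co-culture and 324 ± 47.7 CPM in untreated cells (SD, n = 5 each, 95% interval of the log2 fold change -0.21 to 0.24). The cyclase gene Lss was at -0.24 ± 0.140, and its libraries spread widely, from 83.5 to 131 CPM in co-culture and from 92.3 to 147 CPM in untreated cells. The demethylase gene Cyp51 was at 0.06 ± 0.057, the C4 oxidase gene Msmo1 at -0.18 ± 0.086 and the reductase gene Hsd17b7 at 0.03 ± 0.060. Their adjusted p-values ran from 0.124 for Msmo1 to 0.913 for Sqle (edgeR). Stard4, which carries cholesterol between membranes, averaged 125 ± 7.23 CPM in co-culture and 125 ± 9.41 CPM in untreated cells (SD, n = 5 each, edgeR adjusted p = 0.999, 95% interval -0.13 to 0.13).

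**Figure D3:**
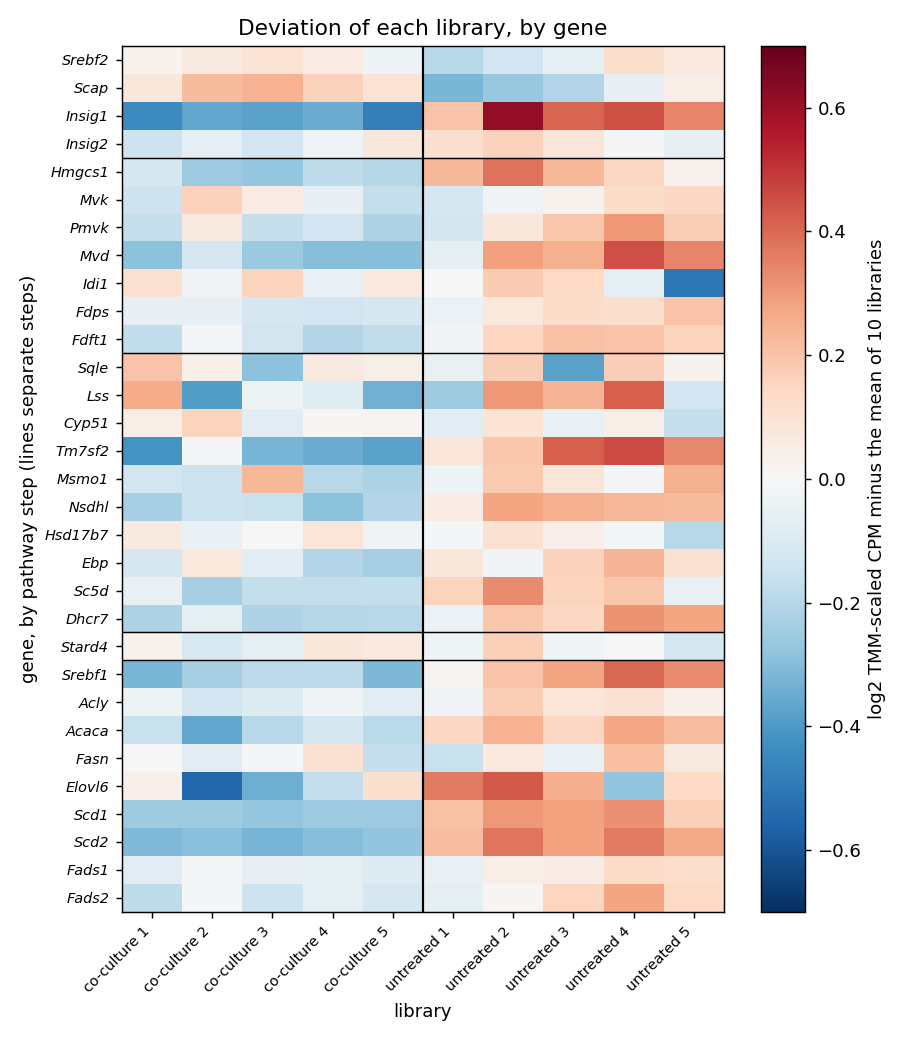
Log2 TMM-scaled CPM of each gene in each library minus the mean of that gene over 10 libraries, with co-culture libraries left of the vertical line and untreated libraries right of it. Rows of Insig1, Scd1, Scd2 and Srebf1 are blue in all co-culture libraries, rows of Sqle, Hsd17b7 and Stard4 show no split, and untreated replicate 1 is the palest of its group.

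In the fatty acid arm, the stearoyl-CoA desaturase genes Scd1 and Scd2, whose products put the double bond into oleate, had the smallest p-values. Scd2 (ENSMUSG00000025203, chromosome 19, 44293676 to 44306864) had 1763, 1781, 1745, 1780 and 1802 CPM in co-culture libraries, against 2535, 2837, 2656, 2810 and 2630 CPM in untreated libraries. Scd1 (ENSMUSG00000037071, chromosome 19, 44394451 to 44407709) had 513, 513, 505, 512 and 511 CPM in co-culture libraries, against 704, 754, 740, 760 and 684 CPM in untreated libraries. The co-culture libraries were nearly level for both genes and far below the untreated ones. Log2 fold changes were -0.60 ± 0.043 for Scd2 (edgeR adjusted p = 3.39e-07) and -0.51 ± 0.041 for Scd1 (SE, edgeR adjusted p = 9.17e-07). The genes are close relatives, and how shared reads were split between them is not given in the sources used here.

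Acaca (chromosome 11, 84129672 to 84401651), the acetyl-CoA carboxylase that commits carbon to fatty acids, had 90.9, 78.8, 88.5, 93.2 and 89.0 CPM in co-culture libraries, against 112, 120, 112, 122 and 117 CPM in untreated libraries. The groups stood clearly apart (log2 fold change -0.40 ± 0.052 SE, edgeR adjusted p = 6.21e-05). Fasn, the fatty acid synthase that uses its product, had 1499, 1424, 1487, 1607 and 1339 CPM in co-culture libraries, against 1346, 1569, 1449, 1736 and 1563 CPM in untreated libraries. These values overlapped, and the log2 fold change of -0.06 ± 0.068 did not pass (edgeR adjusted p = 0.550, 95% interval -0.21 to 0.09). Acly, which makes cytosolic acetyl-CoA from citrate, fell to 668 ± 21.1 CPM in co-culture, against 739 ± 38.6 CPM in untreated cells (SD, n = 5 each, edgeR adjusted p = 0.0234). The elongase gene Elovl6 was at 113 ± 20.8 CPM in co-culture and 146 ± 25.9 CPM in untreated cells and did not pass (log2 fold change -0.36 ± 0.138 SE, edgeR adjusted p = 0.0587).

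The desaturases of polyunsaturated fatty acids, Fads1 and Fads2, fell by less than Scd1 and Scd2 in log2 fold change, a difference that was not tested. Fads2, the delta-6 desaturase, had 192, 215, 196, 208 and 201 CPM in co-culture libraries, against 208, 219, 241, 263 and 240 CPM in untreated libraries. Fads1, the delta-5 desaturase, had 484, 509, 492, 488 and 481 CPM in co-culture libraries, against 494, 529, 530, 563 and 559 CPM in untreated libraries. Both overlapped between groups, at log2 fold changes of -0.21 ± 0.062 for Fads2 and -0.12 ± 0.044 for Fads1 (SE, edgeR adjusted p = 0.0188 and 0.0447). The call of Fads1 was lost in 14 of 21 alternative fits, with adjusted p up to 0.112, that of Acly in 6, with adjusted p up to 0.0927, and that of Fads2 in 1, with adjusted p = 0.053 (limma on log2(FPKM + 1) without a filter).

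On the FPKM scale, which divides counts by gene length and library total, Scd2 was the most abundant of the 31, at 329 ± 6.19 in co-culture and 488 ± 21.7 in untreated cells (SD, n = 5 each). Acaca was the least abundant in both, at 4.39 ± 0.327 in co-culture and 5.68 ± 0.199 in untreated cells. Srebf2 had rank 4 of 31 in co-culture, at 129 ± 3.99 FPKM, and rank 7 in untreated cells, at 120 ± 10.0 FPKM. Scd1 had rank 7 in co-culture, at 107 ± 1.60 FPKM, and rank 4 in untreated cells, at 149 ± 6.55 FPKM. Several neighbours in this order lay closer together than their spread, so their ranks are not resolved: Fasn and Scd1 in co-culture, and in untreated cells Fads1, Fads2 and Scd1, and likewise Mvd (121 ± 14.5 FPKM) and Srebf2.

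Ratios of related genes within a library do not depend on the scaling between libraries, and 4 were compared. The FPKM ratio of Srebf1 to Srebf2 was 0.296 to 0.318 in co-culture libraries and 0.436 to 0.478 in untreated libraries, a log2 difference of -0.57. That of Insig1 to Insig2 was 3.98 to 4.96 in co-culture and 6.21 to 8.05 in untreated libraries, a log2 difference of -0.69. In both pairs the groups were fully apart (two-sided exact permutation test, p = 0.00794, which is the least that 5 against 5 can give, and adjusted p = 0.0106 over the 4 ratios). The ratio of Scd1 to Scd2 was 0.320 to 0.328 in co-culture and 0.293 to 0.314 in untreated libraries, so Scd2 fell by slightly more (log2 difference 0.09, exact permutation p = 0.00794, adjusted p = 0.0106). The ratio of Fads1 to Fads2 was 1.02 to 1.10 in co-culture and 0.934 to 1.06 in untreated libraries and did not pass (log2 difference 0.08, exact permutation p = 0.0952, adjusted p = 0.0952).

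**Figure D4:**
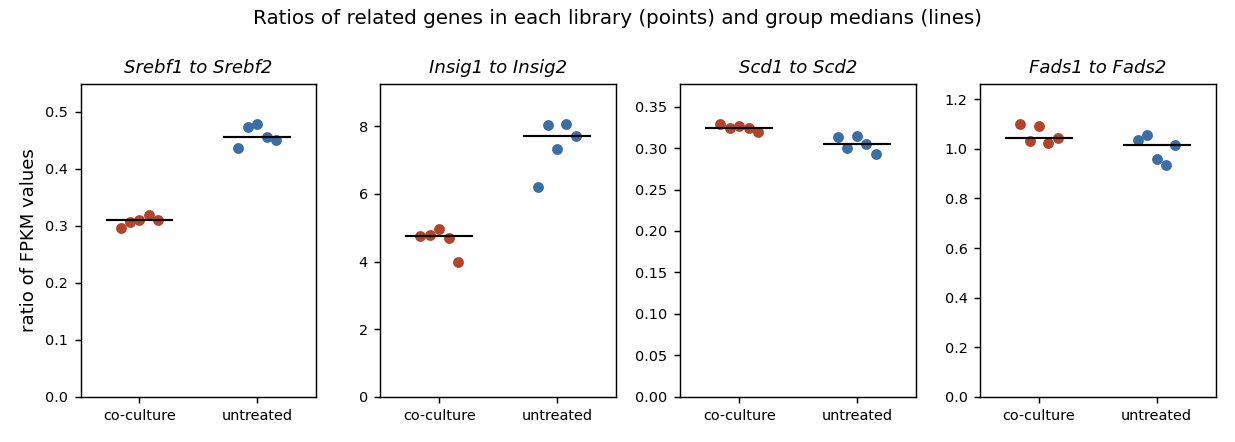
Ratio of FPKM values of 4 pairs of related genes in each library, co-culture in red and untreated in blue, with the group median as a line. The ratios of Srebf1 to Srebf2 and of Insig1 to Insig2 are lower in every co-culture library, that of Scd1 to Scd2 is slightly higher, and that of Fads1 to Fads2 overlaps.

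Libraries of the untreated group were less alike than those of the co-culture group for these genes. Untreated replicate 1 was the lowest of its group for 19 of 31 genes and the highest for none, whereas untreated replicates 2 and 4 were the highest for 12 and 14. In the co-culture group no library was lowest for more than 8 genes. Without untreated replicate 1, 18 of the 31 genes were called lower and 1 higher. Co-culture replicate 2 was the highest of its group for 11 genes, and without it 18 were called lower and 1 higher, while the fatty acid arm median was -0.28.

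Genes that border on the pathway were read from lists that were chosen with earlier results of these data known. Of 19 further SREBP targets and neighbouring enzymes, 9 fell and 1 rose, with a median of -0.19. The shares over all genes tested were 16.1% lower and 17.4% higher. Acss2, which makes acetyl-CoA from acetate, fell to 102 ± 5.31 CPM in co-culture, against 177 ± 11.9 CPM in untreated cells (SD, n = 5 each, log2 fold change -0.79, edgeR adjusted p = 3.31e-07). Acacb, the mitochondrial-surface relative of Acaca, fell to 23.0 ± 1.37 CPM in co-culture, against 46.9 ± 6.54 CPM in untreated cells (log2 fold change -1.02, edgeR adjusted p = 3.49e-06, n = 5 each). The gene that rose was Acat1, a mitochondrial thiolase (0.17, edgeR adjusted p = 0.0295).

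Of 9 genes of SREBP processing and Insig turnover, 4 fell and 1 rose, with a median of -0.29. Over all genes tested, 16.1% were lower and 17.4% higher. Pgrmc1, a membrane haem protein that binds Insig1, fell by 0.38 on the log2 scale and Rnf139, a ubiquitin ligase of the reticulum, fell by 0.30. Mbtps1, the site-1 protease that cuts SREBP precursors, rose to 398 ± 8.45 CPM in co-culture, against 356 ± 12.0 CPM in untreated cells (SD, n = 5 each, edgeR adjusted p = 0.00595).

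The LXR and sterol storage or efflux list held Abca1 and Abcg1, which fell more than any other gene of the lists. Of its 13 genes, 8 fell and 1 rose, with a median of -0.29, beside 16.1% lower and 17.4% higher among all genes tested. Abca1, which exports cholesterol to apolipoproteins and is an LXR target, had 3.58, 2.58, 3.14, 4.52 and 4.67 CPM in co-culture libraries, against 12.6, 12.8, 13.7, 11.7 and 12.1 CPM in untreated libraries. Its log2 fold change was -1.77 ± 0.140 (SE, edgeR adjusted p = 8.91e-07), with the groups wide apart. Abcg1, another LXR-induced exporter, fell to 5.74 ± 0.645 CPM in co-culture, against 14.4 ± 1.92 CPM in untreated cells (SD, n = 5 each, log2 fold change -1.33, edgeR adjusted p = 2.17e-06). The gene that rose was Apoe, an apolipoprotein also abundant in macrophages, at 3.64 ± 0.505 CPM in co-culture and 2.18 ± 0.461 CPM in untreated cells (n = 5 each, edgeR adjusted p = 0.00497). The macrophage marker sum given above also rose, and its part in this value was not tested. The receptor genes themselves, Nr1h2 (-0.15) and Nr1h3 (-0.29), did not pass (edgeR adjusted p = 0.0988 and 0.353).

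Of 10 genes for isoprenoids, dolichol and ubiquinone, branches that leave the mevalonate pathway before squalene, 1 fell and 1 rose, with a median of 0.05, beside 16.1% lower and 17.4% higher among all genes tested. Nus1, a subunit of the dolichol-making prenyltransferase, had a log2 fold change of -0.21 (edgeR adjusted p = 0.0176), and Pdss1, which builds the ubiquinone side chain, was higher by 0.38 (edgeR adjusted p = 0.0281). Each of these calls was lost in 5 of 21 alternative fits.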

How the data were processed

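Gene expression was measured by RNA sequencing of 10 libraries, 5 from co-cultured and 5 from untreated Hepa1-6 cells. Tools listed in the submitters' processing notes are RSEM 1.2.8, HISAT2 2.1.0 and Bowtie2 2.2.5, with no role for each, and the build is mm10. Annotation release and strand use are not stated there. The deposited counts are whole numbers per gene, not normalized, per the file headers and values. The deposited FPKM are the same counts divided by gene length and library total: for the 9379 genes that reached 100 counts throughout, the implied length differed by at most 0.00104% between libraries. A total of 3 counts corresponds to a floor of 0.175 to 0.232 CPM.

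Replicate libraries differed by more than sampling noise (chi-square per degree of freedom 6.67 to 15.1 over 20 pairs), so each was kept. Counts were tested with edgeR 4.0.16 in R 4.3.3 (filterByExpr, TMM, quasi-likelihood F test, p-values adjusted over all 12666 genes tested). Each standard error is the log2 fold change over the root of F, and intervals from the t distribution. The scripts were tested on simulated counts. Alternatives were other scalings and filters, DESeq2 1.42.0, limma 3.58.1 on counts and on log2(FPKM + 1) or log2(FPKM + 0.1), the replicate number as a block, and each library left out. Lists are described by counts and medians, without set tests. Named beside all 31 genes are the genes with the 2 smallest p-values of each neighbouring list, chosen markers, and the genes that rose in a list. Nr1h2, Nr1h3, Krt8, Krt18, Cd14, Cd68, Mpeg1, Itgam and overlapping genes were added after values were seen. Values of every library are given for regulator and paralog pairs, the 4 called genes of each arm with the largest change, and, chosen later, Scap, Fasn and Abca1. The genes and lists were chosen with earlier results of these data known. Promoter windows are RefSeq sequences of GRCm38.p6; gene positions are those of the deposited table.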

Additional observations from a re-analysis of the deposited data

Results flagged for a closer look

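In 10 of 90 groups of 5 values examined, 1 library lay far from the other 4, where chance flags about 1 in 20 groups. In co-culture replicate 2, Pmvk (240 CPM), Mvd (166 CPM), Tm7sf2 (45.7 CPM) and Dhcr7 (175 CPM) were high against the rest of the group. In co-culture replicate 3, Msmo1 was high, at 136 CPM. In untreated replicate 1, Fdft1 (213 CPM) and Nsdhl (152 CPM) were low. Among neighbouring genes, Acss2 was low in co-culture replicate 5, at 92.5 CPM, and Acacb high in co-culture replicate 4, at 25.4 CPM. The log2 ratio of Insig1 to Insig2 was low in co-culture replicate 5, at 1.99. Without co-culture replicate 3, Msmo1 passed the threshold (edgeR adjusted p = 0.00605). The calls of Pmvk, Mvd, Tm7sf2, Dhcr7, Fdft1 and Nsdhl were kept without the library named.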

How the results depend on the processing

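Of the 31 genes, 20 kept their direction and call under all 21 alternatives, 14 of them called. Between 14 and 19 genes were called lower and 1 higher under every one. Replicate numbers did not pair the libraries: deviations of same-numbered libraries correlated at -0.16 to 0.06, and 0 of 5 co-culture libraries matched their own number best. With the replicate block, 15 genes were called lower and 1 higher, out of 1625 and 1762 over all genes, and the calls of Acly, Ebp and Fads1 were lost (adjusted p = 0.0818, 0.0593 and 0.112).

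Leaving out 1 library at a time gave 16 to 18 genes lower, medians of -0.24 to -0.19 for the sterol arm and -0.42 to -0.28 for the fatty acid arm, and a Fads1 to Fads2 log2 difference of 0.059 to 0.103, past the threshold without untreated replicate 2 (exact permutation, adjusted p = 0.0397). In limma on log2(FPKM + 1) without a filter, Pmvk and Fads2 lost their calls (adjusted p = 0.0603 and 0.053). Acly lost its call without untreated replicate 2, Pmvk without co-culture replicate 5 or untreated replicate 4, and Fads1 in all but the fits without co-culture replicate 2 or untreated replicate 1. Elovl6 passed without co-culture replicate 1 or 5 or untreated replicate 4, without the low-count filter and with DESeq2 (lowest adjusted p = 0.00973).

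Values near 0 changed sign. Stard4 (-0.035 to 0.043 over single omissions) was at 0.0336 with library totals only, at 0.0323, 0.0339 and 0.0323 in the 3 FPKM fits, at 0.00102 with limma on counts and at 0.000968 with the block, and at 0.0211, 0.0123 and 0.0432 without co-culture replicates 2 and 3 and untreated replicate 2. Sqle (-0.068 to 0.081) was at -0.0355, -0.000175 and -0.0682 without co-culture replicate 1 and untreated replicates 1 and 3, and Idi1 (-0.018 to 0.139) and Hsd17b7 (-0.020 to 0.056) were below 0 without untreated replicate 5. The cause was not tested.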

Other observations

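The spread between libraries differed among the 31 genes. The coefficient of variation of CPM ran from 0.694% for Scd1 to 18.5% for Lss in co-culture libraries, and from 3.93% for Acaca to 19.4% for Lss in untreated libraries. Its median over the genes was 5.43% in co-culture and 8.86% in untreated libraries. In untreated cells Idi1 ran from 61.8 to 99.1 CPM, with replicate 5 the lowest, and Sqle from 249 to 365 CPM, with replicate 3 the lowest. Co-culture replicate 3 was also the lowest of its group for Sqle, at 265 CPM.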
